A study of Gallus gallus with 6 samples.

Results

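The immediate early and AP-1 genes studied here were 10 genes chosen by symbol: FOS, FOSL2, JUN, EGR1, ATF3, ATF4, DDIT3, IER2, IER5 and DUSP1. Every probe set of the deposited table whose platform annotation gave exactly 1 gene symbol equal to one of these names was taken. That gave 10 probe sets for 7 genes, out of 38535 probe sets in the table. No probe set was matched to DDIT3, IER2 or IER5, which were not analysed here. Where a gene had several, they are numbered here by falling mean level. Of the 10 probe sets, 7 reached the minimum for testing, a log2 value of 4 or more on 3 or more arrays, and these stood for 5 genes: JUN, EGR1, ATF3, ATF4 and DUSP1.

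RNA came from cultured chicken neural crest cells of Brown Leghorn background, a migratory embryonic population that forms melanocytes, much of the peripheral nervous system and mesenchyme. They were the cells that had crawled out of explanted neural tubes during 3 days in medium with retrovirus, after which the tubes were discarded. The v-Myb cultures (3 arrays) carried v-Myb-L3,4A-HAER, the oncogenic transcription factor v-Myb with a mutated leucine zipper, whose activity is induced by 4-OH-tamoxifen. The N118D cultures (3 arrays) carried v-Myb-L3,4A-N118D-HAER, the same inducible protein with a further point mutation in its DNA-binding domain. Both groups expressed their protein constitutively, and both received the inducer, 4-OH-tamoxifen at 200 nM, during the 4 hours before RNA was taken. The comparison thus asks which transcripts differ after 4 hours between v-Myb without and with this further mutation. No array without the treatment was analysed here. The labels call the replicates biological without saying which embryos each came from, so the tests see no more than the spread among these 6 cultures. In bulk RNA, fewer cells of a type and less RNA per cell cannot be told apart.

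Immediate early genes are switched on by growth factor, stress and calcium signals from pre-existing factors, without new protein synthesis, and most of their transcripts decay quickly. FOS and JUN family proteins pair through leucine zippers to form AP-1, which binds DNA as a dimer. ATF3 and ATF4 belong to the same basic leucine zipper superfamily. Stress kinases that phosphorylate the initiation factor eIF2 increase translation of ATF4, whose regulation is therefore largely post-transcriptional, and ATF3 and DDIT3 are among its known mammalian targets. Feedback is provided by phosphatases such as DUSP1, which remove phosphate from MAP kinases.

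The arrays had log2 medians of 3.08 to 3.12, and 3 arrays per group limit the precision of every difference. The first principal component held 54.6% of the variance, with scores of 0.66 on v-Myb replicate 1 and 0.38 on N118D replicate 1 and of -0.46 to 0.02 on the others. Neural crest and pigment cell markers were present, with SOX10 at 11.03 to 11.92 and MLANA at 12.24 to 13.66, but SOX9 lay at 2.08 to 2.46, under the minimum. The cultures also carried markers of other cell types. The mean level of 7 tested neuronal genes ran from 8.80 to 10.85 on v-Myb arrays and from 9.45 to 9.92 on N118D arrays. That of 5 tested neural tube progenitor genes ran from 7.81 to 9.51 and from 8.34 to 9.1. That of 6 epithelial genes, 2 of them matched through synonyms, ran from 8.39 to 9.84 and from 9.81 to 10.26, and that of 8 mesenchymal and matrix genes from 12.22 to 12.62 and from 12.29 to 12.77. Of 4 blood genes, PTPRC and CD74 were tested while LYZ stayed between 2.07 and 2.11. Of 5 skeletal muscle genes 3 were tested: ACTA1 at 12.13 to 13.01, TNNT3 at 5.37 to 6 and MYOD1 at 4.87 to 5.53. MYOG stayed between 1.79 and 1.86.

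After 4 hours of treatment the transcripts of JUN, EGR1, ATF3, ATF4 and DUSP1 were all measured above the minimum, while the FOS and FOSL2 probe sets were not. The groups overlapped on all 7 tested probe sets. The differences farthest from 0 were those of DUSP1, lower by a log2 value of -0.21 in v-Myb cultures, and of EGR1, at -0.16 and -0.20 on its 2 probe sets. ATF4 differed by 0.00 on both tested probe sets. Of the 7 probe sets 0 passed an adjusted p of 0.05 and 0 had an unadjusted p under 0.05, where 0% and 1.91% of all 16526 tested probe sets did (limma, Benjamini-Hochberg adjustment, smallest adjusted p 0.9999).

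**Figure D1:**
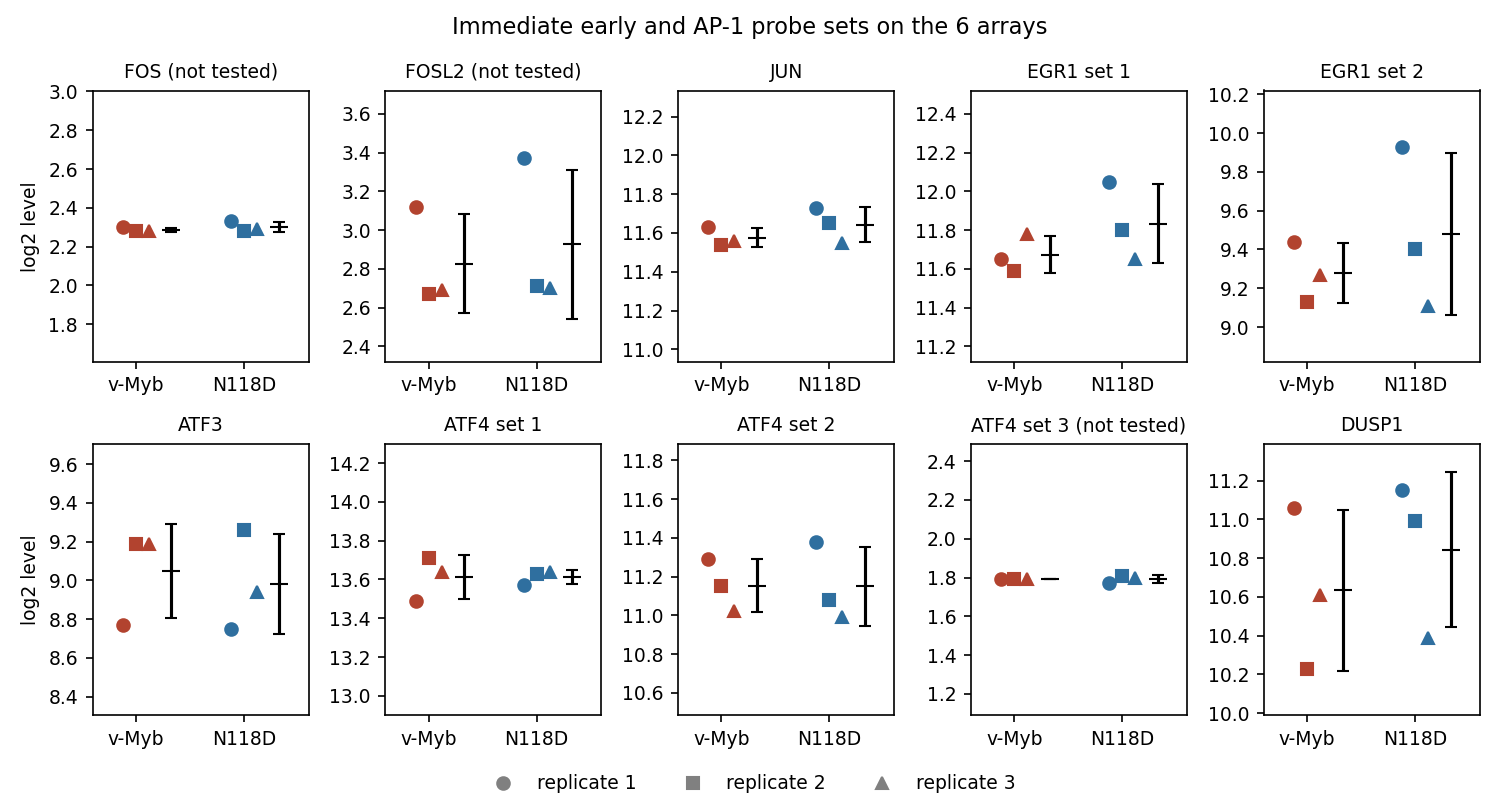
Log2 levels of the 10 probe sets on each array, with v-Myb cultures left of N118D cultures, 1 symbol per replicate, and the mean and SD of 3 arrays as a black bar. Every panel spans 1.4 log2 units; FOS and the third ATF4 probe set are flat and dim, and DUSP1 has the widest range, 0.92.

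Of the Fos family, FOS encodes the founding AP-1 partner of JUN. Its probe set read 2.30, 2.28 and 2.28 on v-Myb arrays and 2.33, 2.28 and 2.29 on N118D arrays. The 6 values lay within 0.05 of each other and well under the minimum of 4. FOSL2, the Fra-2 subunit, read 3.12, 2.67 and 2.69 on v-Myb arrays and 3.37, 2.71 and 2.70 on N118D arrays. Both arrays numbered 1 were the highest of their group, and none reached 4. GCRMA, which the submitters' processing notes name, pulls dim probe sets towards a floor. These readings show only that neither transcript reached the minimum of 4, and say nothing about a difference.

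JUN, the main DNA-binding partner in AP-1, had log2 levels of 11.63, 11.54 and 11.56 on v-Myb arrays and 11.73, 11.65 and 11.55 on N118D arrays. The whole range over the 6 arrays was 0.18, and N118D replicate 3 lay among the v-Myb values. v-Myb cultures averaged 11.58 ± 0.05 and N118D cultures 11.64 ± 0.09 (SD, n = 3 each). The log2 difference was -0.06 (standard error 0.08, limma, unadjusted p 0.471, adjusted p 0.9999). Its 95% interval corresponds to 0.838-fold to 1.10-fold. JUN also varied less than most tested probe sets, 14.1% of which had a smaller SD over the 6 arrays.

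Among the ATF members, ATF3 is a stress-induced factor that represses many promoters as a homodimer. ATF3 read 8.77, 9.19 and 9.19 on v-Myb arrays and 8.75, 9.26 and 8.94 on N118D arrays. The lowest value of each group was on its replicate 1, and the groups covered the same range. v-Myb cultures averaged 9.05 ± 0.24 and N118D cultures 8.98 ± 0.26 (SD, n = 3 each). Their log2 difference was 0.07 with a standard error of 0.18 and an unadjusted p of 0.724 (limma, adjusted p 0.9999), and the interval ran from 0.770-fold to 1.43-fold. Leaving out v-Myb replicate 1 gave 0.21 and leaving out N118D replicate 1 gave -0.05, so its direction rests on single arrays.

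ATF4, the main effector of the integrated stress response, was represented by 3 probe sets that did not behave alike. The first read 13.49, 13.71 and 13.64 on v-Myb arrays and 13.57, 13.63 and 13.64 on N118D arrays. The second read 11.29, 11.15 and 11.02 on v-Myb arrays and 11.38, 11.08 and 10.99 on N118D arrays. On the second, replicate 1 was the highest of each group, whereas on the first it was the lowest of each group. The third lay between 1.77 and 1.81 throughout and was left untested.

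Both tested ATF4 probe sets had the same mean in both groups. The first averaged 13.61 ± 0.12 on v-Myb arrays and 13.61 ± 0.03 on N118D arrays, and the second 11.15 ± 0.13 on v-Myb arrays and 11.15 ± 0.20 on N118D arrays (SD, n = 3 each). The differences were 0.00 with standard errors of 0.08 and 0.13 (limma, unadjusted p 0.997 for both, adjusted p 0.9999). The 95% intervals ran from 0.866-fold to 1.16-fold on the first and from 0.798-fold to 1.25-fold on the second. Only 0.303% and 0.502% of tested probe sets had a smaller absolute difference. That share was 42.5% for JUN, 45.9% for ATF3, 78.3% and 83.9% for EGR1 and 85.2% for DUSP1. With single arrays left out the ATF4 differences ran from -0.05 to 0.06 and from -0.08 to 0.11. ATF4 protein, on which stress signalling mainly acts, was not measured here.

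EGR1, a zinc finger factor induced through serum response elements, was measured by 2 probe sets. On the first it read 11.65, 11.59 and 11.78 on v-Myb arrays and 12.05, 11.80 and 11.65 on N118D arrays. On the second it read 9.44, 9.13 and 9.27 on v-Myb arrays and 9.93, 9.40 and 9.11 on N118D arrays. N118D replicate 1 was the highest array on both, and N118D replicate 3 lay within or below the v-Myb values on both.

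The first EGR1 probe set averaged 11.67 ± 0.10 on v-Myb arrays and 11.83 ± 0.20 on N118D arrays (SD, n = 3 each), which differ by -0.16 (standard error 0.12). Its unadjusted p of 0.239 was the smallest of the 7 (limma, adjusted p 0.9999), and its interval ran from 0.723-fold to 1.10-fold. The second averaged 9.28 ± 0.15 on v-Myb arrays and 9.48 ± 0.42 on N118D arrays (SD, n = 3 each). These differ by -0.20 (standard error 0.22, limma unadjusted p 0.406, adjusted p 0.9999), with an interval of 0.597-fold to 1.27-fold. Without N118D replicate 1 the differences were -0.05 and 0.03, and without N118D replicate 3 they were -0.25 and -0.39. The size of the EGR1 difference therefore depended on which N118D array was kept.

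DUSP1, the nuclear phosphatase that inactivates JNK, p38 and ERK, varied most among the members. It read 11.06, 10.23 and 10.61 on v-Myb arrays and 11.15, 10.99 and 10.39 on N118D arrays. v-Myb replicate 2 was the lowest array and N118D replicate 3 the next lowest, so the groups overlapped over most of their range. v-Myb cultures averaged 10.63 ± 0.41 and N118D cultures 10.84 ± 0.40 (SD, n = 3 each). Their log2 difference was -0.21 (standard error 0.28, limma unadjusted p 0.489, adjusted p 0.9999). The interval, 0.534-fold to 1.40-fold, was the widest of the 7. A smaller SD over the 6 arrays was found for 87.8% of tested probe sets. Leaving out v-Myb replicate 2 gave -0.01, and leaving out N118D replicate 3 gave -0.44.

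**Figure D2:**
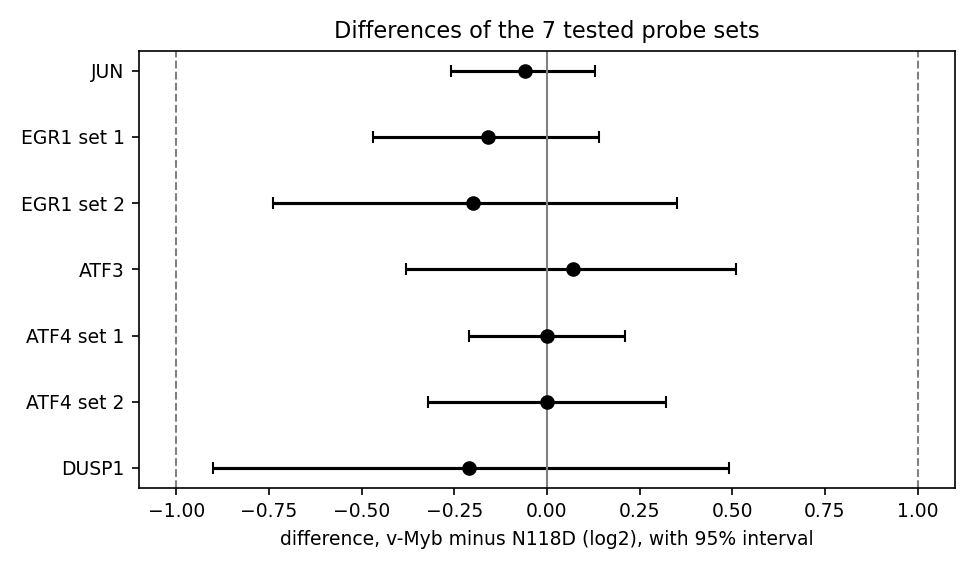
Differences of the 7 tested probe sets, v-Myb minus N118D in log2 units, as points with 95% intervals from limma's moderated variance; dashed lines mark a 2-fold difference either way. All 7 intervals include 0 and lie inside the dashed lines, the widest being that of DUSP1, from -0.90 to 0.49.

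Set side by side, JUN, EGR1 and DUSP1 had values below 0, ATF3 a value above 0, and ATF4 none to 2 decimals. Counted by sign, 3 of the 5 tested genes were lower in v-Myb cultures, where 51.1% of all 8571 tested genes were, so the count is near the background. The median difference was -0.061 over the 5 genes and -0.002 over all tested genes. Groups that did not overlap were found for 0 of the 7 probe sets and for 5.74% of all tested probe sets. All 7 of the 95% intervals, none of them adjusted for the number of genes, excluded a 2-fold difference in either direction. For DUSP1 this depended on the fit: the lower limit, -0.90 as reported, was -1.13 with no moderation of the variance, -1.10 without v-Myb replicate 1, or -1.11 when N118D replicate 3 was left out, which is past a 2-fold difference. With 3 arrays a group the smallest two-sided exact permutation p possible is 0.1, and the lowest among the 7 was 0.2, for the first EGR1 probe set.

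Differences between replicates were at least as large as those between groups for most members. Relative to its mean over the 6 arrays, DUSP1 stood at 0.32, -0.51 and -0.13 on v-Myb arrays and at 0.41, 0.25 and -0.35 on N118D arrays. The second EGR1 probe set stood at 0.06, -0.25 and -0.11 on v-Myb arrays and at 0.55, 0.02 and -0.27 on N118D arrays. Both were highest on N118D replicate 1 and lowest on v-Myb replicate 2 or N118D replicate 3. ATF3 went the other way on replicate 1 of both groups, with -0.25 on the v-Myb array and -0.27 on the N118D array.

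Marker lists of other cell types also varied between these arrays. The neuronal list stood at 1.23, -0.50 and -0.82 on v-Myb arrays and at -0.04, -0.17 and 0.30 on N118D arrays. The epithelial list stood at 0.32, -1.13 and -0.63 on v-Myb arrays and at 0.40, 0.74 and 0.30 on N118D arrays, and the melanocyte list at -0.20, 0.64 and 0.15 and at -0.44, -0.01 and -0.14. Epithelial markers and DUSP1 were thus both lowest on v-Myb replicate 2, where neural crest and pigment markers were highest. The neural tube progenitor, mesenchymal and skeletal muscle lists were also lowest there, at -0.78, -0.26 and -0.33. For the neural tube progenitor list this was nearly a tie, with -0.75 on v-Myb replicate 3. DUSP1 was next lowest on N118D replicate 3, at -0.35, where the epithelial list stood at 0.30. On that array the neural tube progenitor, skeletal muscle and mesenchymal lists stood at 0.51, 0.13 and -0.18. All 6 tested epithelial genes and all 8 mesenchymal genes were lower in v-Myb cultures, where 51.1% of all tested genes were. All 8 melanocyte genes and all 7 tested neural crest genes were higher. In these 4 lists, in that order, 2, 0, 1 and 0 genes had an unadjusted p under 0.05 in limma, against 1.68% of all tested genes. None passed adjustment. The genes of a list share the same 6 arrays, so they are not independent of each other. The 2 epithelial genes with an unadjusted p under 0.05 in limma, KRT13 (0.0056) and KRT24 (0.0267), were those matched through synonyms. The part of these marker lists in the levels of the immediate early genes was not tested.

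**Figure D3:**
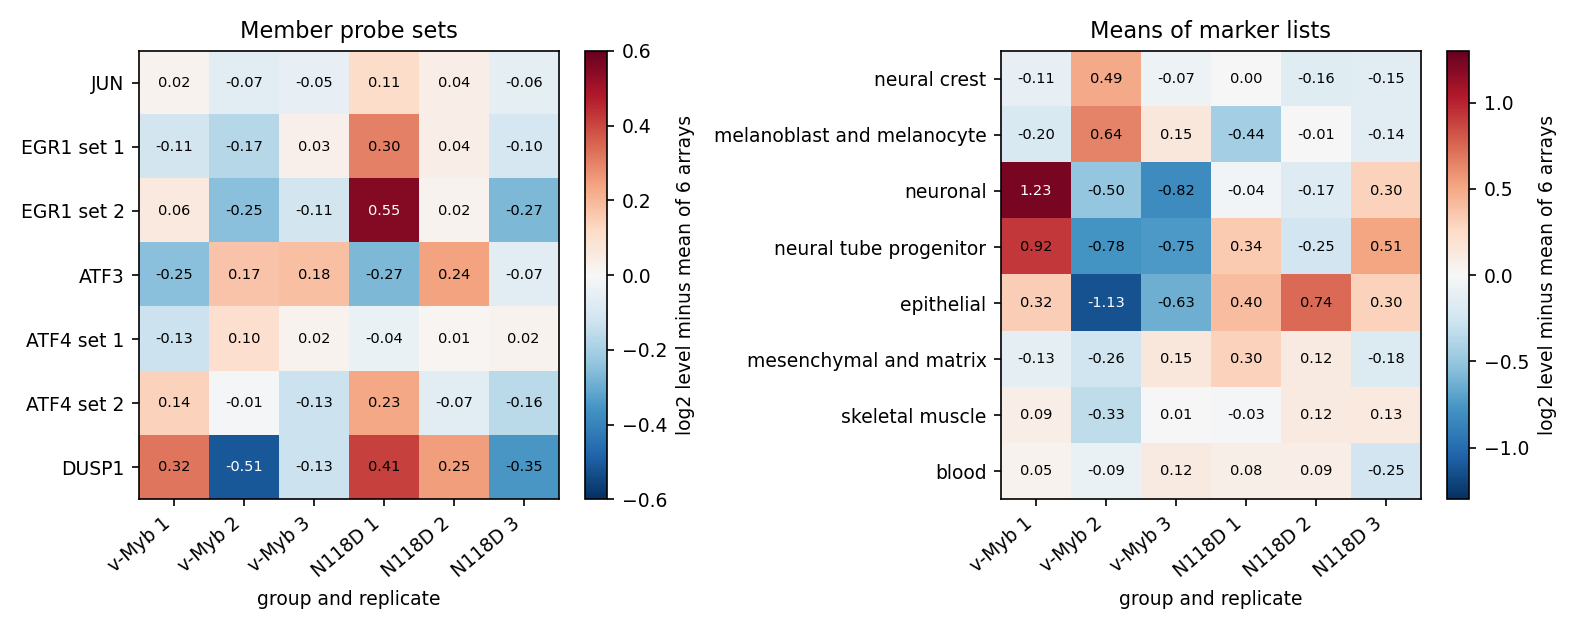
Log2 levels relative to the mean of the 6 arrays, by group and replicate, for the 7 tested probe sets (left) and for the means of 8 marker lists (right); the colour scales differ between the panels. JUN and the first ATF4 probe set vary least, and EGR1 is highest on N118D replicate 1. DUSP1 and the epithelial, neural tube progenitor, mesenchymal and skeletal muscle markers are lowest on v-Myb replicate 2. The neural tube progenitor markers are nearly as low on v-Myb replicate 3, at -0.75. On N118D replicate 3 DUSP1 is also low, at -0.35, while the epithelial markers stand at 0.30.

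Across the 6 arrays some members varied together. JUN and the second EGR1 probe set had a Pearson r of 0.96 and a Spearman rho of 0.89 over 6 arrays (exact permutation p 0.00556 and 0.0333, two-sided). Adjusted over the 21 pairs of probe sets compared, these p-values were 0.111 and 0.175. Leaving out the 2 arrays farthest from the JUN median left r at 0.91 over 4 arrays. With the first EGR1 probe set, JUN had r = 0.82 and rho = 0.83 (exact permutation p 0.0236 and 0.0583, adjusted 0.111 and 0.204). After the same step r was 0.22, against 0.91 with the second EGR1 probe set. JUN and DUSP1 gave r = 0.92 and rho = 0.94 (exact permutation p 0.0208 and 0.0167, adjusted 0.111 and 0.175), with r = 0.96 over the remaining 4 arrays. The 2 EGR1 probe sets had r = 0.89 and rho = 0.54 (exact permutation p 0.0361 and 0.297, adjusted 0.117 and 0.416). Without the 2 arrays farthest from the median of the first, r was 0.24. Such a step leaves 4 arrays over a narrowed range, so it cannot tell whether a relation rests on the arrays left out. The 2 ATF4 probe sets had r = -0.59 and rho = -0.54 (exact permutation p 0.214 and 0.297, adjusted 0.306 and 0.416), with r = -1.0 over the remaining 4 arrays, and so gave no common profile. An unadjusted p under 0.05 for r was found in 7 of the 21 pairs and an adjusted one in 0. The 7 include the 2 EGR1 probe sets with each other. They also include the first ATF4 probe set with DUSP1, at r = -0.79 (exact permutation p 0.0389, adjusted 0.117). The share among pairs of other tested probe sets was not computed, so the count of 7 has no background to be read against. Probe sets on an array share its labelling and normalization, and only 6 arrays stand behind each value.

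The wider pathway was followed in 5 lists: other AP-1 and related leucine zipper factors, other immediate early genes, feedback regulators of MAP kinases, upstream MAP kinases with serum response factors, and ATF4 and unfolded protein response genes. Each list gene was counted by its probe set of highest mean. Of their genes 0 passed an adjusted p of 0.05 in limma and 0 had an unadjusted p under 0.05. Among all tested genes 0% and 1.68% did. Other probe sets of the genes are outside these counts and are given below as differences only. The genes given below are the 4 of each list with the smallest p, and each had an adjusted p of 0.9999. All differences given are log2 values, v-Myb minus N118D.

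Of 26 other AP-1 and related factors 17 had a probe set and 10 were tested, with 7 higher, 3 lower and a median difference of 0.070. FOSB, FOSL1, JUNB and JUND were not matched to a probe set. MAFK, a small Maf protein that pairs with other zipper factors, read 11.83, 12.13 and 12.24 on v-Myb arrays and 11.77, 12.01 and 11.71 on N118D arrays, which is 0.23 higher (standard error 0.14). ATF1, a CREB relative, differed by 0.10 and its groups did not overlap, as was true of 5.55% of all tested genes. ATF2, a partner of JUN, differed by 0.12, but its other probe sets gave 0.20, 0.34 and -0.16. JDP2, a repressor of AP-1, differed by -0.17 with a standard error of 0.19.

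Among other immediate early genes 25 of 35 were tested, 8 of them higher and 17 lower, with a median of -0.067. GADD45G, a growth arrest and stress signalling gene, read 8.93, 8.22 and 8.07 on v-Myb arrays and 8.89, 8.84 and 8.97 on N118D arrays. v-Myb replicate 1 lay within the N118D values and the other v-Myb arrays lay below them. The difference was -0.49 with a standard error of 0.23 (limma, unadjusted p 0.0775, adjusted p 0.9999), and a further probe set gave -0.40. CSRNP1, a nuclear factor induced by AXIN1, differed by -0.14, and by -0.03 on a further probe set. The aryl hydrocarbon receptor target TIPARP differed by -0.09 with groups that did not overlap, and the zinc finger factor KLF2 by 0.19.

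Feedback regulators of MAP kinase signalling were tested for 14 of 17 genes, with 7 higher, 7 lower and a median of -0.008. DUSP14, DUSP10, DUSP6 and DUSP3, all dual-specificity phosphatases like DUSP1, differed by -0.23, -0.13, -0.11 and 0.06. Their standard errors were 0.26, 0.15, 0.14 and 0.08. DUSP14 was lowest on v-Myb replicate 2, at 9.57 against 10.28 to 10.56 elsewhere, and DUSP1 was lowest on that array too. DUSP6, the ERK-specific phosphatase, read 11.13, 11.02 and 11.24 on v-Myb arrays and 11.46, 11.26 and 11.00 on N118D arrays, a profile like that of the first EGR1 probe set.

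Upstream, 21 of 26 MAP kinase and serum response genes were tested, with 9 higher, 12 lower and a median of -0.014. MAPK14, the p38 alpha kinase, read 11.46, 11.69 and 11.74 on v-Myb arrays and 11.44, 11.45 and 11.45 on N118D arrays. On this probe set the groups did not overlap, by a margin of hundredths between v-Myb replicate 1 and the N118D arrays. Its difference was 0.18 with a standard error of 0.10, while the other tested MAPK14 probe set gave 0.07. The JNK genes MAPK8 and MAPK10 differed by -0.25 and -0.15, and ELK4, a partner of serum response factor, by 0.11. A separate MAPK8 probe set gave 0.09 and another -0.10, and a further MAPK10 probe set gave -0.13.

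ATF4 and unfolded protein response genes were tested for 25 of 34, with 14 higher, 11 lower and a median of 0.015. DNAJB9, a chaperone partner of the endoplasmic reticulum, differed by 0.13 (0.07 and -0.11 on its other probe sets), and the interferon-induced eIF2 kinase EIF2AK2 by 0.11. CEBPB, a zipper factor that pairs with ATF4, differed by -0.12. HERPUD1, which acts in degradation of misfolded endoplasmic reticulum proteins, differed by -0.16, and by -0.57 and -0.41 on its other probe sets. With each gene counted by its probe set of highest mean only, differences over the list ranged from -0.16 to 0.15.

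**Figure D4:**
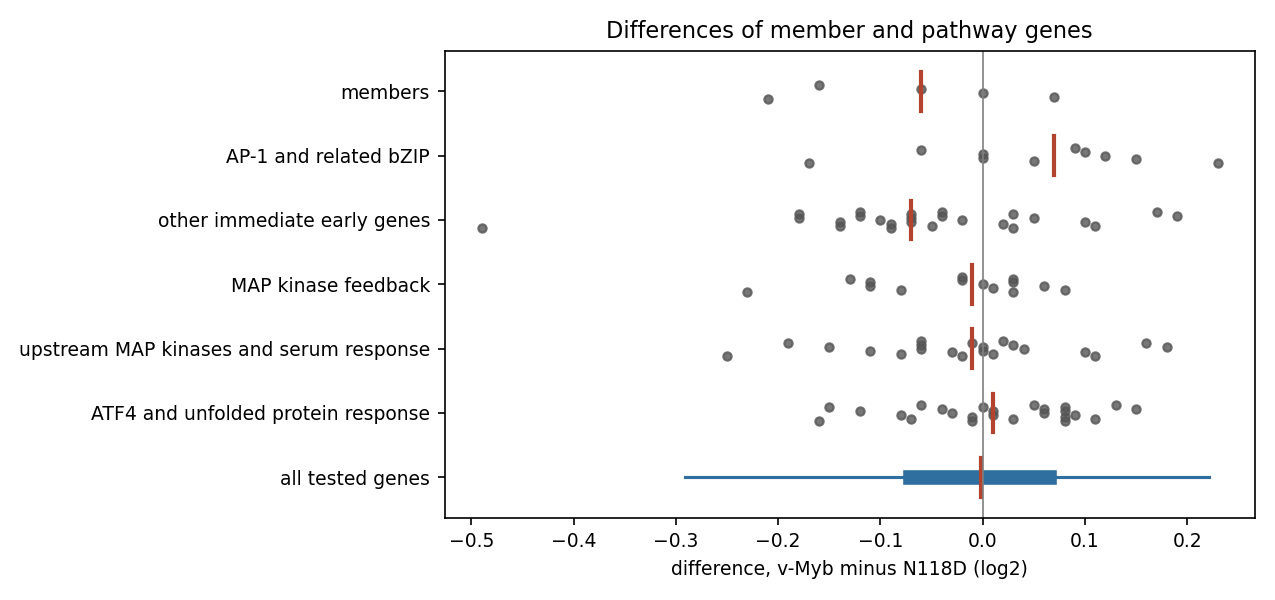
Log2 differences (v-Myb minus N118D) of the 5 tested members and of the tested genes in 5 pathway lists, 1 point per gene with the median as a red bar; the bottom row shows the 25th to 75th (thick) and 5th to 95th (thin) percentiles of all 8571 tested genes. The medians lie between -0.067 and 0.070, and the lowest point is GADD45G at -0.49.

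Likeness to EGR1 over the 6 arrays was examined after the values had been seen and is given as a description. It was taken from the first EGR1 probe set only, and the second was not used. For 2 of the 14 feedback genes and 2 of the 25 other immediate early genes, Pearson's r with the first EGR1 probe set was at least 0.9, or 14.3% and 8.0% of those lists, where 1.53% of all 8570 other tested genes reached it. They were DUSP10 (0.98), DUSP6 (0.96), CSRNP1 (0.97) and ZFP36L2 (0.91). No minimum SD was set for this likeness, and their SDs over the 6 arrays were only 0.19, 0.17, 0.13 and 0.10. Over the 6 arrays none of the tested genes in the other 3 lists reached an r of 0.9. In the opposite direction, PDIA4 of the ATF4 and unfolded protein response list had r = -0.94. The median r was 0.59 for feedback genes, 0.48 for other immediate early genes, 0.31 for upstream kinases, -0.04 for AP-1 and related factors and -0.20 for ATF4 and unfolded protein response genes, against 0.08 for all tested genes. Taken within groups, after each group's mean was removed, the medians were 0.68, 0.58, 0.35, 0.08 and -0.01 in the same order of lists and 0.08 for all tested genes. An r of at least 0.9 within groups was found for 2 of 14 feedback genes, 3 of 25 other immediate early genes and 1 of 21 upstream genes (ELK4, 0.93). Of all 8570 other tested genes 229 reached it, against 131 before the group means were removed. The genes were not all the same as before. DUSP10, DUSP6 and CSRNP1 stayed, ZFP36L2 fell to 0.88, and KLF10 (0.97) and MCL1 (0.94) were added. The arrays behind these values are the same 6, and genes are not independent replicates.

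**Figure D5:**
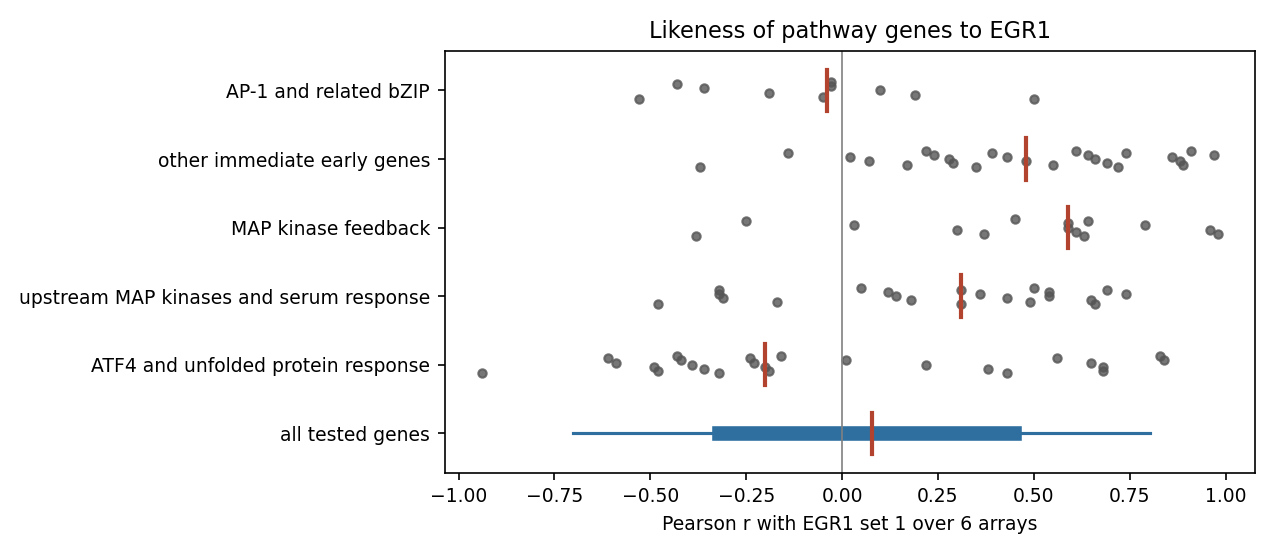
Pearson's r over the 6 arrays with the first EGR1 probe set for tested genes of the 5 pathway lists, 1 point per gene with the median as a red bar; the bottom row shows the 25th to 75th (thick) and 5th to 95th (thin) percentiles of all other tested genes. The feedback and other immediate early lists have medians of 0.59 and 0.48, against 0.08 for all genes.

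The mean profile of the 5 tested members, relative to the mean of all arrays, stood at -0.03, -0.09 and 0.01 on v-Myb arrays and at 0.10, 0.12 and -0.11 on N118D arrays. Among 1454 other genes with an SD of at least 0.3 over the 6 arrays, the 5 closest to it were LOC772158, the Wnt ligand gene WNT5B, the coagulation factor gene F8, the thrombin receptor gene F2R and EMB, a cell adhesion protein of the basigin family. Their r over 6 arrays ran from 0.948 to 0.964, and as the highest of 1454 values they are a description only. Their differences ran from -0.51 for EMB to -0.17 for WNT5B, with an adjusted p of 0.9999 each in limma. F2R was dim, with values of 3.62 to 4.53 around the minimum of 4. Likeness to FOS was not computed, because FOS stayed under the minimum on every array.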

How the data were processed

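Biotin-labelled RNA of 6 cultures was hybridised to an Affymetrix-type chicken array, per the labels' protocols. The authors deposited a log2 value for each probe set on each array, made with GCRMA and Partek 6.4 per the submitters' processing notes, which give neither their roles nor a genome build. The log2 scale was read from the values, which run from 0.78 to 15.83. GCRMA shrinks differences of dim probe sets. Of 38535 probe sets, 96 controls were left out, and 16526 reaching 4 on 3 or more arrays were tested with limma 3.58.1 in R 4.3.3 (lmFit and eBayes, group as the only term, two-sided, Benjamini-Hochberg over all tested, threshold 0.05). The fit was tested on simulated data. The platform annotation, of an older date, named 1 gene for 27178 probe sets, several for 177 and no gene for 11180. A gene with several probe sets was counted by the one with the highest mean. The members and lists were chosen with earlier results of these data known. Named were all members, the 4 genes of each list with the smallest p, and the 5 genes most like the members' mean profile. Alternatives were other filters, normalizations, variance settings, weighted arrays, a replicate block, probe set means and leaving out arrays. Promoter and protein sequences were not analysed here.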

Additional observations from a re-analysis of the deposited data

How the results depend on the processing

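The number of probe sets past an adjusted p of 0.05 was 0 for the members and 0 for the whole table under the alternatives fitted to probe sets, and 0 of 8571 genes passed when the probe sets of each gene were averaged, while 315 probe sets of the whole table had an unadjusted p under 0.05 as reported, against 734 with no filter, 671 with array weights, 1104 without both arrays numbered 1, and 176 to 1206 with single arrays left out. No member had an unadjusted p under 0.05 in any of these fits, and the smallest was 0.0998, for the first EGR1 probe set without N118D replicate 3. Of 81 member differences under settings that could change them, 66 kept their sign and 15 did not. These counts include the ATF4 probe sets, whose reported difference of 0.00 has no sign to 2 decimals. They also include an alternative chosen after seeing the data, so they do not measure how stable the directions were. With single arrays left out, the range was -0.05 to 0.21 for ATF3, -0.05 to 0.06 and -0.08 to 0.11 for the ATF4 probe sets, -0.25 to -0.05 and -0.39 to 0.03 for the EGR1 probe sets, -0.44 to -0.01 for DUSP1 and -0.11 to -0.02 for JUN. The count of member genes below 0 then ran from 3 to 5, and it was 5 of 7 with no filter. The second ATF4 probe set gave 0.01 with median centring, 0.04 with array weights and 0.05 with both arrays numbered 1 left out, and the mean of probe sets per gene gave 0.00 for ATF4. With v-Myb replicate 2 also left out, an alternative chosen after seeing the data, EGR1 gave 0.06 and 0.02. The cause was not tested.

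Same-numbered arrays had correlations of their deviations from the group means of 0.40, 0.45 and -0.05 for replicates 1, 2 and 3. v-Myb replicate 3 correlated best with N118D replicate 2 (0.42). Deviations within a group sum to 0, so these values are not independent and cannot settle whether the numbers pair the cultures. The reported fit did not pair them. With the replicate block 666 probe sets had an unadjusted p under 0.05 and 0 passed adjustment. The block lowered the standard error from 0.18 to 0.09 for ATF3 and from 0.28 to 0.21 for DUSP1. For the second probe sets of EGR1 and ATF4 it fell from 0.22 to 0.15 and from 0.13 to 0.08. For the first EGR1 probe set it went from 0.12 to 0.13. Such a block cannot change a difference between groups here, since each number holds 1 array of each group, and DUSP1 stays at -0.21 by construction. The DUSP1 interval also passed a 2-fold difference, at lower limits of -1.11 without v-Myb replicate 3, -1.02 without N118D replicate 2 and -1.20 under the alternative chosen after seeing the data, while those of the other 6 probe sets stayed inside it in the fits to probe sets. Dim signal limits FOS and FOSL2, for which no difference could be measured.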

Other observations

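HBEGF, an EGF receptor ligand gene in the list of other immediate early genes, varied far more between replicates than between groups. It read 6.09, 8.38 and 8.12 on v-Myb arrays and 6.30, 8.20 and 7.59 on N118D arrays, so both arrays numbered 1 were the lowest of their group. MAFF, a small Maf gene, read 9.05, 9.66 and 9.99 on v-Myb arrays and 9.28, 9.76 and 9.40 on N118D arrays. DUSP7, a further MAP kinase phosphatase, read 4.99, 6.49 and 6.34 on v-Myb arrays and 5.35, 6.03 and 6.35 on N118D arrays. All 3, chosen after their values were seen, were lowest on both arrays numbered 1, as was ATF3, and their differences between groups were 0.17, 0.09 and 0.03 with standard errors of 0.76, 0.27 and 0.47.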
